A study of Mus musculus with 5 samples.

Results

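The 200 cells described here passed a gate for neutrophils, the short-lived granulocytes that arrive first at damaged or inflamed tissue, among 51670 called cells of 5 mouse synovial sarcomas. All of the tumours were of the hSS2 model, in which the human SS18::SSX2 fusion gene sits silent in the Rosa26 locus of mice of a mixed strain (written CB57Bl/6-svJ in the methods) until TATCre, a cell-permeable recombinase protein, is injected into a limb of young pups, and every tumour carried this allele and had this treatment. Tumours were taken at morbidity and labelled by the histology of adjacent tissue as BP (biphasic, with gland-like epithelium, 2 tumours, here replicates 1 and 2), MP (monophasic, spindle cells, 1 tumour), MP+BP (1 tumour) and PD+MP (PD for poorly differentiated, 1 tumour). The BP tumours share the leading number of their titles, and whether they came from 1 animal is not stated; no label gives the age or sex of the animals, and there was no normal tissue or untreated control. A portion of each tumour was dissociated, strained and treated to lyse red blood cells before droplet-based 3-prime sequencing, with no sort for neutrophils.

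Members were chosen by a gate on counts of unique molecular identifiers (UMIs, each standing for 1 captured RNA molecule). A cell had at most 25% mitochondrial UMIs, at least 10 UMIs of S100a8 and S100a9 together, at least 1 of 5 further neutrophil genes detected (Csf3r, Retnlg, Cxcr2, Mmp8, Mmp9), at most 3 UMIs of the macrophage genes C1qa, C1qb and C1qc together, and under 5 UMIs of Adgrb3, a gene of the synovial sarcoma cells. Of 47446 cells within the mitochondrial limit, 248 reached the S100 threshold, 231 of these also had a second marker, 225 passed the C1q limit and 200 passed the Adgrb3 limit. A further 40 cells held 5 to 9 S100 UMIs and met every other condition, with a median of 1320.5 UMIs of which 0.446% were S100 molecules; the 20 members just inside, with 10 to 14, had a median of 1333 UMIs of which 0.936% were. The levels of the 11 gate genes are therefore given as a description, without a test.

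Neutrophils mature in the bone marrow, where they first load primary granules with Mpo, Elane, Prtn3 and Ctsg, then secondary and tertiary granules with Ltf, Camp, Ngp, Lcn2 and Mmp8, and stop dividing before release. G-CSF acting on the receptor Csf3r drives their production, Cxcr2 draws them out of marrow and into tissue, Cxcr4 holds them in marrow, and S100a8 and S100a9 together form calprotectin, the most abundant protein of their cytosol. In tissue they carry little RNA, lose much of the granule programme and turn on cytokines such as Il1b and chemokines such as Cxcl2 that bring further neutrophils.

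The 200 members were spread very unevenly over the tumours. BP replicate 1 held 106, which was 1.35% of its 7836 cells within the mitochondrial limit (exact 95% binomial interval 1.11% to 1.63%). BP replicate 2 held 38 of 11267 cells, a share of 0.337% (0.239% to 0.463%), and MP held 28 of 8845, a share of 0.317% (0.21% to 0.457%). MP+BP held 21 of 10311, or 0.204% (0.126% to 0.311%), and PD+MP held 7 of 9187, or 0.0762% (0.0306% to 0.157%). BP replicate 1 stood above all 4 other tumours and PD+MP below the first 3, in both cases by more than the counting intervals, while BP replicate 2, MP and MP+BP overlapped. These intervals cover counting error only and not the spread between animals or dissociations.

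**Figure D1:**
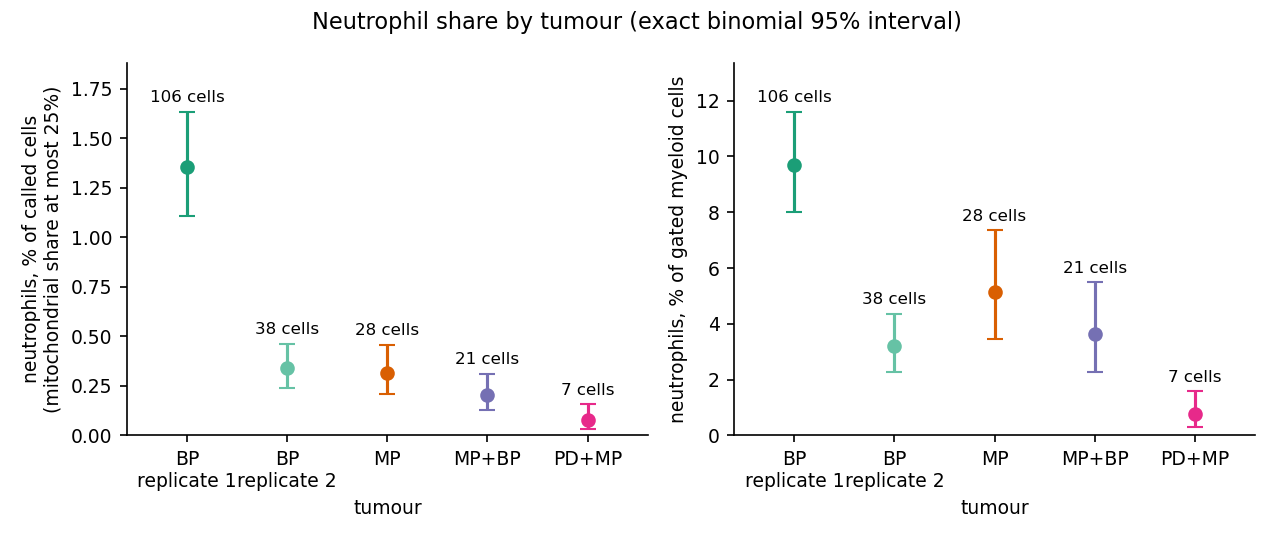
Share of neutrophils in each tumour, as a percentage of called cells within the mitochondrial limit (left) and of gated myeloid cells (right), with exact 95% binomial intervals and the number of member cells above each point. BP replicate 1 lay highest on both scales, at 1.35% and 9.70%, and PD+MP lowest, at 0.0762% and 0.768%.

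Against the myeloid cells alone (neutrophils, C1q-positive macrophages and monocyte-like cells gated the same way) the order changed. Neutrophils were 9.70% of 1093 myeloid cells in BP replicate 1, 3.20% of 1189 in BP replicate 2, 5.15% of 544 in MP, 3.63% of 578 in MP+BP and 0.768% of 912 in PD+MP. BP replicate 1 and PD+MP remained the ends of the range, with 9.16 macrophages for each neutrophil in the former and 119 in the latter. Tumours with a biphasic component averaged 0.631% ± 0.629 neutrophils (SD, n = 3) and the others 0.196% ± 0.17 (SD, n = 2), a difference of 0.435 percentage points that lay within the spread between tumours (exact two-sided permutation test, p = 0.40; 3 against 2 tumours can reach no less than 0.20). Without BP replicate 1 the difference was 0.0741 percentage points.

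Members held little RNA. Their median was 1524 UMIs and 737.5 genes, with 0.509% mitochondrial UMIs, against 5275.5 UMIs and 4.06% in the 3992 macrophages. The per-tumour medians ran from 1092 UMIs in PD+MP to 1644 in MP, so the small transcriptome was shared by every tumour. As many as 101 of the 200 members (50.5%) had fewer than 750 detected genes, the minimum applied in the original clustering, against 10.4% of all cells within the mitochondrial limit. With that minimum the gate kept 61, 15, 16, 5 and 2 members in BP replicate 1, BP replicate 2, MP, MP+BP and PD+MP. Summed over members, the tumours gave 238452, 92122, 57289, 36718 and 8732 UMIs in the same order; in PD+MP 1 UMI is worth 115 counts per 1000000 (CPM), so levels there below 344 CPM rest on fewer than 3 molecules.

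**Figure D2:**
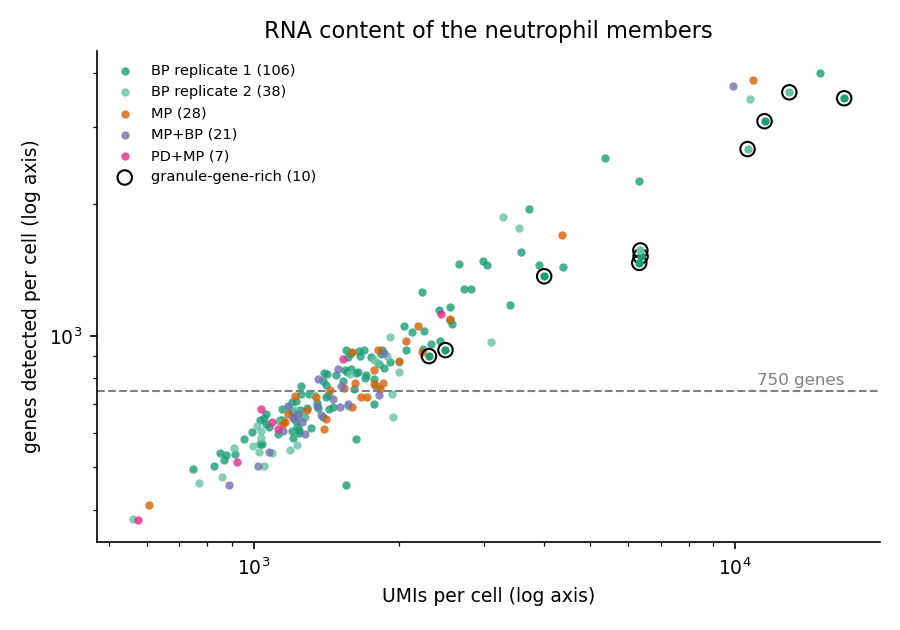
UMIs (x) and genes detected (y) in each of the 200 members, both on log axes, coloured by tumour, with the 10 members rich in granule genes ringed and the 750-gene minimum dashed. Of the 200 members, 133 lie between 1000 and 2000 UMIs and 101 below the dashed line, and all of the ringed cells lie above it.

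Beside this low RNA content, several libraries' values bear on all results. No barcode was shared by members of different tumours. A doublet score (Scrublet, with the highest-scoring cells marked at the rate the loading predicts) marked 11 members. S100a9 was found in 0.13% to 2.99% of synovial sarcoma cells, at median depths of 10037 to 13155 UMIs, and was highest in BP replicate 1. Thinned to 500 UMIs a cell, S100a9 remained in 98% of members against 0.2% of synovial sarcoma cells and 0.1% of macrophages (1000 of each thinned). S100a9 helped to choose the members, and macrophages had to hold under 10 S100 UMIs, so this contrast follows in large part from the gates. Xist was counted in 4 tumours and not in the 7 members of PD+MP, where the Y-linked gene Uty gave 2 UMIs; the labels do not give the sex of the animals.

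The gate genes were high in all tumours but not at equal levels. S100a9 stood at 47012 CPM in BP replicate 1 and 63752 in BP replicate 2, while MP had 39205, MP+BP 23476 and PD+MP 22103. S100a8, its partner, gave 24135, 35334, 22727, 11629 and 15575 CPM in the same order. Both were highest in BP replicate 2, and MP+BP and PD+MP held the lowest 2 sums of each. Csf3r, the G-CSF receptor, was found in 172 members and stood at 969, 966, 1711, 1062 and 2176 CPM. Cxcr2, the receptor for Cxcl1 and Cxcl2, was found in 131 members at 545, 586, 751, 953 and 1489 CPM. PD+MP was highest for both receptors, in a sum of 7 cells where 1 UMI is worth 114.5 CPM. Both genes also helped to choose the cells. Retnlg, a resistin-like protein of neutrophils, was found in 91 members at 3191, 6101, 2025, 817 and 1031 CPM. Of the other gate genes, Mmp9 (gelatinase B) was found in 126 members and Mmp8 (neutrophil collagenase) in 35. Only 32 members rested on a single second marker, and 110 had 3 or more of the 5.

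Genes that the gate did not use carried the label. Of 11 other neutrophil markers, all had UMIs among the members and 199 of 200 cells held at least 1. Their summed level was 11290.0, 13840.0, 17940.0, 16260.0 and 15690.0 CPM in the 5 tumours in the order above, against 85.2 to 403 CPM in macrophages. G0s2, an inhibitor of triglyceride breakdown, was at 2029.8 CPM in BP replicate 1 and 3962 in BP replicate 2, while MP had 4294, MP+BP 7135 and PD+MP 1031. Clec4d, a C-type lectin receptor, was found in 187 members and varied little, at 2936, 2811, 3334, 2369 and 3665 CPM. Mxd1, a Myc antagonist, had 1329, 1617, 2618, 1825 and 3321 CPM, and Hdc, the histamine-forming enzyme, had 835, 1498, 2723, 1171 and 1832 CPM. No tumour lacked any of these 4, and no tumour was highest for all. Acod1 (the itaconate-forming enzyme) averaged 1311 ± 574 CPM (SD, n = 5), Trem1 (an amplifying receptor) 871 ± 335 CPM (SD, n = 5) and Il1r2 (a decoy receptor for interleukin 1) 810.4 ± 216 CPM (SD, n = 5). Ly6g, the surface marker by which mouse neutrophils are usually sorted, was by contrast found in 19 members only, with 25, 17, 1, 1 and 0 UMIs.

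Markers of other cells were low but not all absent. The macrophage genes Mrc1 and Folr2, the monocyte genes Ccr2, F13a1 and Ms4a4c, the eosinophil genes Prg2 and Epx, the basophil gene Mcpt8 and the T-cell genes Cd3e and Trac were at 0 in every tumour. The monocyte list of 6 genes, in contrast, summed to 453, 402, 105, 27.2 and 0 CPM, against 2251 to 5741 CPM in monocyte-like cells, and Ly6c2 led it with 106, 36, 3, 0 and 0 UMIs in 29 members. Of these, 52 UMIs in BP replicate 1 and 34 in BP replicate 2 lay in the 10 granule-rich cells described further on. The cytotoxic-cell gene Nkg7 gave 19 UMIs in 3 members of the BP tumours, Cd3d gave 2, and the eosinophil genes Siglecf and Ccr3 gave 6 and 3. Over the whole macrophage list of 10 genes the summed level was 122 to 802 CPM, against 32530.0 to 45490.0 CPM in macrophages themselves, and 8 of the 10 had at least 1 UMI. The 7 synovial sarcoma genes summed to 114 to 218 CPM against 3149 to 4265 CPM in synovial sarcoma cells. The macrophage list holds C1qa, C1qb and C1qc and the synovial sarcoma list holds Adgrb3, so the gates set part of both differences. Ccr2, Ly6c2, Vcan and F13a1 of the monocyte list likewise helped to choose the monocyte-like cells. Vessel genes were less even: the 4 endothelial genes summed to 105, 119, 681, 626 and 0 CPM, and the mural and fibroblast list reached 1640.0 CPM in BP replicate 1, where a single cell held 322 of the 364 Rgs5 UMIs. Of the endothelial gene Cdh5, 1 cell held 20 of the 21 UMIs in MP and 1 cell held all 13 in MP+BP. In all, 11 of the 200 members had 4 or more UMIs of endothelial, mural, fibroblast or synovial sarcoma genes; their part in the results below was measured by leaving them out.

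The 15 genes with the highest mean CPM outside the mitochondrial and ribosomal protein sets were S100a9, S100a8, Tmsb4x, Fth1, Malat1, Gm42418, Srgn, Actb, Il1b, Cxcl2, Actg1, Cebpb, Junb, Tpt1 and S100a11. This ranks captured molecules, as 3-prime counting takes 1 tag per molecule, and capture can differ between transcripts. Srgn, the core protein that packs granule contents, averaged 8705 ± 2410.0 CPM (SD, n = 5) against 1118 ± 245 CPM in macrophages. Cebpb, a transcription factor of emergency granulopoiesis and inflammation, was found in 197 members and averaged 4317 ± 1023 CPM (SD, n = 5) against 1312 ± 393 CPM. The ferritin chain Fth1 averaged 17946 ± 7212 CPM (SD, n = 5) against 18696 ± 4841 CPM, within the spread of both, and the actin-binding peptide Tmsb4x 18844 ± 3943 CPM (SD, n = 5) against 31982 ± 4918 CPM.

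Within the gate, 10 of the 200 cells stood apart by their granule genes. Summed over Camp, Ngp, Ltf, Mpo, Elane, Prtn3 and Ctsg they held 71 to 1074 UMIs each, with a median of 532, whereas 190 members held a median of 0; the 3 cells nearest below the cut of 20 UMIs had 18, 8 and 4. This cut was set after the values were seen, and what follows from it is a description. In BP replicate 1, 7 of the 106 members and 3 of the 38 of BP replicate 2 were granule-rich. None of the 28 members of MP, the 21 of MP+BP or the 7 of PD+MP was. With so few cells, none of these tumours is shown to hold a smaller share than the BP tumours. Granule-rich cells were also called outside the gate, 4 in BP replicate 1, 6 in BP replicate 2 and 3 in MP, and none in MP+BP or PD+MP. In the same order, 2, 1 and 2 of them held 5 or more Adgrb3 UMIs, and 1, 3 and 1 others had under 10 S100 UMIs. The remaining 1 of BP replicate 1 and 2 of BP replicate 2 failed another condition. In MP only 2 of the 3 were within the mitochondrial limit. Whether any of these cells came from marrow taken with the tissue was not tested.

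The granule-rich cells and the others also differed in their cytokines. Camp, the cathelicidin precursor, was found in all 10 and in none of the 190. Il1b was found in 171 of the 190 (1819 UMIs) and in none of the 10 (0 UMIs), although the 10 were more deeply sampled, with a median of 6355 UMIs against 1460. Cxcl2 followed Il1b, with 3210 UMIs in 132 of the 190 and 1 UMI in 1 of the 10. Csf3r was found in 5 of the 10 and in 167 of the 190, Retnlg in 6 and in 85, and Lcn2, a siderophore-binding granule protein, in all 10 and in 65. Cebpe, the transcription factor of secondary granule formation, was found in 6 of the 10 and in 5 of the 190, and S100 molecules were 18.4% of UMIs at the median against 3.57%.

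**Figure D3:**
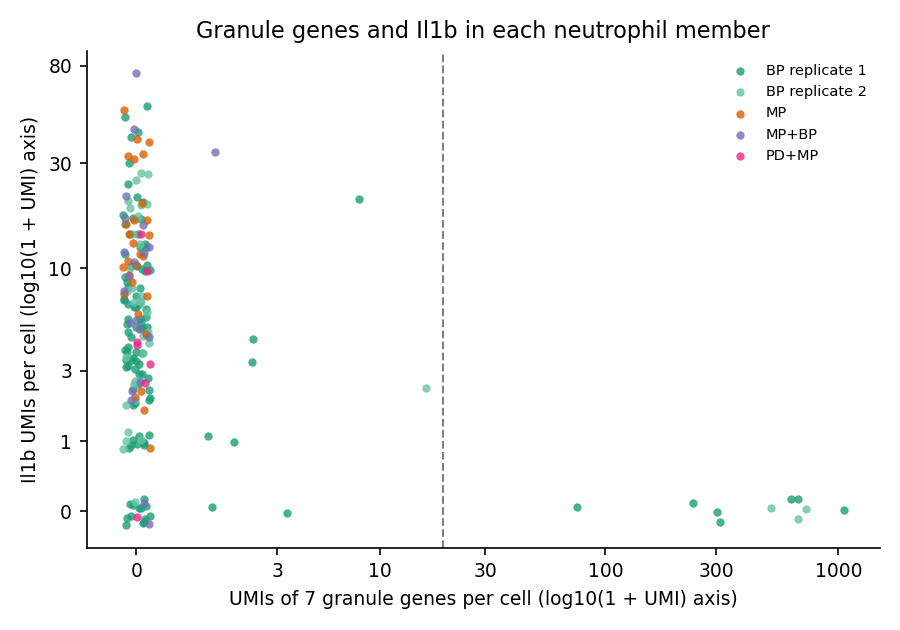
UMIs of 7 granule genes (x) and of Il1b (y) in each of the 200 members, on log10(1 + UMI) axes with small random offsets, coloured by tumour. The 10 members to the right of the dashed cut at 20 UMIs all lie at 0 Il1b UMIs, and all come from the BP tumours.

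Within the 10 there were further differences. Elane (neutrophil elastase) was found in 3 of them, with 77 UMIs in 1 cell of BP replicate 1 and 58 and 149 in 2 cells of BP replicate 2, and these 3 also held Prtn3, Mpo and the mitotic gene Top2a. The cell with 149 Elane UMIs had 181 of Prtn3 and 55 of Mpo but 1 of Camp and none of Ngp or Ltf. Another 6 of the 10 had Camp and Ngp with no Elane and no Top2a UMI. The remaining cell, the deepest at 16838 UMIs, had 475 Camp, 442 Ngp and 146 Ltf UMIs together with 20 of Top2a and 11 of Prtn3. These are single cells of 2 tumours, given as a description.

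These few cells set the granule totals of their tumours. Camp summed to 6408 CPM in BP replicate 1 and 9389.7 in BP replicate 2, while MP had 0, MP+BP 0 and PD+MP 0, Ngp to 4793, 3343, 0, 0 and 0 CPM and Elane to 323, 2247, 0, 0 and 0 CPM in the same order. In BP replicate 1 the 7 granule-rich cells held all 1528 Camp UMIs, 98.7% of Ngp, 99.7% of Ltf, 85.8% of Lcn2 and 57.8% of S100a9. In BP replicate 2 the 3 cells held all 865 Camp UMIs, 94.2% of Ngp and 39.0% of S100a9. Without them S100a9 was at 25070 CPM in BP replicate 1 and 57580 in BP replicate 2, so the latter stayed the highest of the 5 tumours. The granule genes Lcn2, Wfdc21, Pglyrp1 and Hp, by contrast, had UMIs in every tumour, with Hp at 818, 792, 733, 218 and 916 CPM.

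The promoters of the genes that separated the 2 kinds of cell are shown because they are the genes the contrast above rests on: the granule genes Camp, Ngp and Ltf, which were high in the 10, the cytokines Il1b and Cxcl2, which were high in the 190, and the calprotectin pair, which both kinds expressed. The granule genes chose the 10 cells, and their difference is no finding. Each is the 250 bases before the RefSeq start of the gene (GRCm38.p6), 5′ to 3′ on the coding strand. Capitals mark the letters TTNNGNAA on either strand (a C/EBP motif, found in 36.9% of 27025 promoters of this length) in the granule and calprotectin genes, and the letters GGGA and TTCC with any 2 letters between them, on either strand (an NF-kB motif, found in 1.17%) in the cytokine genes. Camp (chr9:109849457-109849706, minus strand), Ngp (chr9:110419558-110419807, plus strand) and Ltf (chr9:111019042-111019291, plus strand) all lie on chromosome 9.
Camp: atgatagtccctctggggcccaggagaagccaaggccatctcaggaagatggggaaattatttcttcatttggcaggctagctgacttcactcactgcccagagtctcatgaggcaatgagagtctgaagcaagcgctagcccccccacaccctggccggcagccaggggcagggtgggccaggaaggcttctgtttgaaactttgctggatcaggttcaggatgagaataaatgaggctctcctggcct
Ngp: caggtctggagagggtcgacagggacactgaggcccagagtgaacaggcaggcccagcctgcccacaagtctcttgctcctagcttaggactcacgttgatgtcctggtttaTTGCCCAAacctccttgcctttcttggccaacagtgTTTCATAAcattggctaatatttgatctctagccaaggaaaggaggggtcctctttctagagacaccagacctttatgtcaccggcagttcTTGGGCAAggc
Ltf: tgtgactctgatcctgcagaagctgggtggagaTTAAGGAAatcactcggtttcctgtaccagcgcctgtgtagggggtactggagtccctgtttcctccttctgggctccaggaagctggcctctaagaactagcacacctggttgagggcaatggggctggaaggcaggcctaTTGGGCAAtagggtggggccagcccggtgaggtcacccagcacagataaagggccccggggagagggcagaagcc
Il1b lies at chr2:129371140-129371389, minus strand, and Cxcl2 at chr5:90903649-90903898, plus strand.
Il1b: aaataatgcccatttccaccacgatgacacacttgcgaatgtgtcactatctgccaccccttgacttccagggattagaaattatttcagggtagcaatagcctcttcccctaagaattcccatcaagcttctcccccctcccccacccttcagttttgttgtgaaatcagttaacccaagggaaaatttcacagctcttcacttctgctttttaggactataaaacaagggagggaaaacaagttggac
Cxcl2: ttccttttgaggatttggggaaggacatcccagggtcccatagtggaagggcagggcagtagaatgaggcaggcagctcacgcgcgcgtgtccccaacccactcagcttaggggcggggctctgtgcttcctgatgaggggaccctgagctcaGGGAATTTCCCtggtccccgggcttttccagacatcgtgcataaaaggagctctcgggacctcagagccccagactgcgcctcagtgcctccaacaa
S100a8 (chr3:90668821-90669070, plus strand) and S100a9 (chr3:90695722-90695971, minus strand) are near neighbours on chromosome 3 and are read in opposite directions.
S100a8: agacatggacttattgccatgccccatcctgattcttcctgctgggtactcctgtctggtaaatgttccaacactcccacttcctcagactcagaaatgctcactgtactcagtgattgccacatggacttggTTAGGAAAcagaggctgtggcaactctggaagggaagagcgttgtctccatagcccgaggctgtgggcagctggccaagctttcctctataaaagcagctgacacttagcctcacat
S100a9: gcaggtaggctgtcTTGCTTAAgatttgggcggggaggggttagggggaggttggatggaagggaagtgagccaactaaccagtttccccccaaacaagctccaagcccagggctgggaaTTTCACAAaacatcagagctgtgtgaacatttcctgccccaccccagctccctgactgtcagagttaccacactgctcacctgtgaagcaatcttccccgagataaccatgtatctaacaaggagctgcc

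The C/EBP letters occurred 3 times in the Ngp window, with their first letters 138, 102 and 11 bases before the start, 2 times in Ltf, at 217 and 75, once in S100a8, at 117, and 2 times in S100a9, at 236 and 130. Camp had no match in its window. The same letters also occurred once each in Il1b, at 91, and Cxcl2, at 236, where they are not capitalised. The NF-kB letters occurred in Cxcl2 in 1 stretch that reads on both strands, 97 bases before the start, and not in Il1b. A match is a description of letters and not of binding, and no match says only that these letters are not in this window.

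Among the cytokines and chemokines, Il1b was the most widely detected. It stood at 3095 CPM in BP replicate 1 and 3235 in BP replicate 2, while MP had 7733, MP+BP 8198 and PD+MP 4466, in 171 members. In these sums MP and MP+BP were the highest, and the BP tumours the lowest. The BP sums include the 10 granule-rich cells, which held 0 Il1b UMIs at a median of 6355 UMIs a cell. Those cells therefore lowered the BP levels only, and the place of the BP tumours in this order depends in part on them. Without them the mean over the 5 tumours was 5820 CPM against 5345 with them. Thinned to 500 UMIs, Il1b was found in 73% of members, 14.5% of macrophages and 0.2% of synovial sarcoma cells. Cxcl2 was at 10656 CPM in BP replicate 1 and 1791 in BP replicate 2, while MP had 4521, MP+BP 5992 and PD+MP 2978. It was highest in BP replicate 1 and lowest in BP replicate 2. In BP replicate 1, 74 of 106 cells held it, the top one with 287 of 2541 UMIs. The macrophage-attracting chemokines Ccl3 and Ccl4 split these tumours further: Ccl3 was at 2068, 32.6, 209, 109 and 229 CPM and Ccl4 at 3271, 249.7, 1484, 1934 and 4352 CPM. Of the 514 Ccl3 UMIs, 493 came from 30 cells of BP replicate 1, and BP replicate 2 was the lowest for both genes. In PD+MP 1 of the 7 cells held 25 of the 38 Ccl4 UMIs. Il1rn, the natural antagonist of the interleukin 1 receptor, was at 377, 282, 227, 1607 and 229 CPM and was thus highest in MP+BP, in 16 of 21 cells. Tnf averaged 219 ± 174 CPM (SD, n = 5), and Il6 gave 26 UMIs, all in 1 cell of BP replicate 1.

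**Figure D4:**
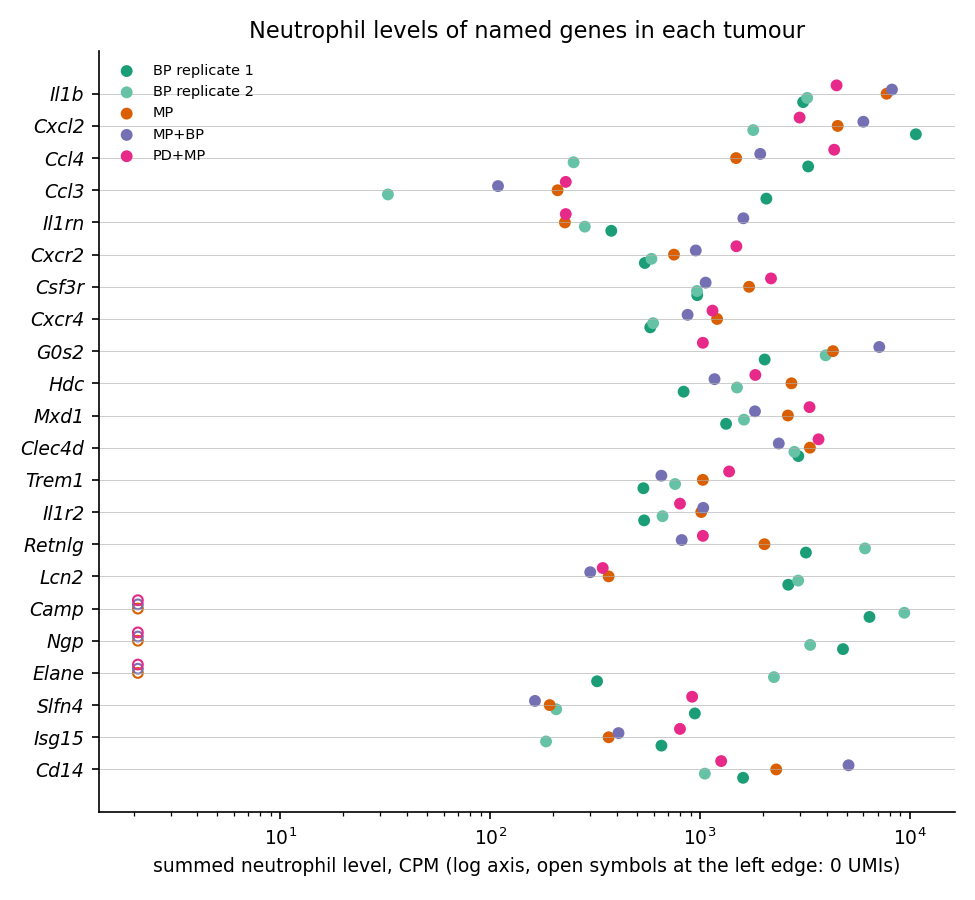
Summed neutrophil level in CPM (x, log axis) of named genes in each of the 5 tumours (colours), with open symbols at the left edge for 0 UMIs. Camp, Ngp and Elane have UMIs in the BP tumours only and Ccl3 runs from 32.6 to 2068 CPM.

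Chemoattractant receptors were found in 198 of the 200 members, a count set in part by the gate because Cxcr2 is on the list. Of the 10 on the list, the most abundant besides Cxcr2 were Ccrl2 (an atypical chemerin-binding receptor) at 994, 337, 297, 681 and 3092 CPM, Ptafr (the platelet-activating factor receptor) at 586 to 1603 CPM and Cxcr4 at 579, 597, 1204, 872 and 1145 CPM. Cxcr4 was found in 131 members and Ccr1, a receptor for Ccl3 and other chemokines, in 125. Fpr1 and Fpr2, which sense formylated bacterial and mitochondrial peptides, were low but present, in 46 and 60 members. Among cytokine receptors the common beta chain Csf2rb averaged 323 ± 244 CPM (SD, n = 5) and the tumour necrosis factor receptor Tnfrsf1a stayed within 229 to 299.6 CPM. Of the adhesion genes, Cd44, the hyaluronan receptor, had 1603 to 4058 CPM, Itgam (CD11b) 369 to 516 CPM and Itgal (part of LFA-1) 195 to 802 CPM.

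Pattern recognition was led by Cd14, at 1602, 1053, 2304, 5093 and 1259.7 CPM, which was highest in MP+BP. Nlrp3, the sensor whose inflammasome matures interleukin 1 beta, was at 906, 695, 1292, 1389 and 1145 CPM, and Clec4e, a receptor for damaged cells, at 499 to 1225 CPM. Cybb, the catalytic subunit of the phagocyte oxidase, was at 528, 282, 17.5, 27.2 and 0 CPM. In BP replicate 1 the 7 granule-rich cells held 98 of its 126 Cybb UMIs.

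Interferon-stimulated genes varied between tumours and between cells of 1 tumour. Over 15 such genes the sums were 3233, 1118, 1501, 1089 and 7100.0 CPM. PD+MP was highest, yet 1 of its 7 cells held 36 of the 62 UMIs, and without that cell the sum was 3418 CPM. BP replicate 1 followed, with 44 of 106 members holding 5 or more UMIs and no cell above 59 of 771, MP had 9 of 28 such members, PD+MP 3 of 7, BP replicate 2 had 6 of 38 and MP+BP 2 of 21. Thinned to 500 UMIs a cell, 27.4%, 15.8%, 25%, 9.52% and 28.6% of members held 2 or more UMIs of these genes, in the order BP replicate 1, BP replicate 2, MP, MP+BP and PD+MP. Slfn4, a schlafen gene of myeloid cells, was at 944, 206, 192, 163 and 916 CPM and Isg15 at 654, 185, 367, 409 and 802 CPM, both highest in BP replicate 1 and PD+MP.

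Genes used to describe suppressive or tumour-conditioned neutrophils gave a mixed picture. Arg2, the mitochondrial arginase, was found in 134 members at 445 to 916 CPM, and Ptgs2, which makes prostaglandin precursors, in 54. Siglecf, a mark of long-lived neutrophils in some tumours, gave 6 UMIs in 6 cells, and Dcstamp and Slc27a2 gave none. Cd274 (PD-L1) was found in 20 members, and all 9 of its UMIs in PD+MP were in 1 cell. The survival gene Mcl1, on which neutrophils depend, was at 2256, 1411, 2706, 2233 and 2634 CPM, whereas Bcl2a1b averaged 493 ± 291 CPM (SD, n = 5) but shares reads with near-identical copies and is uncertain. Of the glycolytic genes, Gapdh was at 952, 1075, 611, 299.6 and 115 CPM and Slc2a3, a glucose transporter, at 247, 532, 192, 299.6 and 0 CPM. MHC class II genes were near 0, with 12 UMIs of Cd74 and 12 of H2-Eb1 over all members, the former against 3641 ± 2563 CPM in macrophages. Of the transcription factors, Junb was at 2684, 2736, 3770.4, 7979.7 and 4008 CPM, highest in MP+BP.

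Set beside macrophages of the same tumour, 164 genes of 14479 ranked (1.13%) were at least 4-fold higher in neutrophils in each of the 5 tumours and 13 (0.0898%) at least 4-fold lower. The 2 classes were defined by gates on other genes, and these counts describe the cells without a test. Counts under 3 were set to 3, which raises ratios in the small neutrophil sums and puts the median over all ranked genes at a log2 ratio of 2.35, so lower calls are the harder to reach. It also lowers the ratio of genes nearly missing from macrophages: over all 5 tumours macrophages held 3 UMIs of Lcn2, 1 of Asprv1 and 0 of Cstdc4, so such ratios are lower bounds and their order is partly set by that floor. The 10 with the highest ratios on this scale were G0s2, Acod1, Cstdc4, Lcn2, Wfdc21, Hp, Hdc, Stfa2l1, Asprv1 and Mirt2. The log2 ratio was 11.99 ± 0.89 (SD, n = 5) for G0s2, 10.34 ± 0.69 (SD, n = 5) for Acod1 and 10.20 ± 2.08 (SD, n = 5) for Lcn2. The 10 lowest were Apoe, Lgmn, Selenop, Pf4, Ms4a7, Ctss, Ctsc, Ctsb, Fabp5 and Npc2, of which Lgmn, Ctss, Ctsc and Ctsb are lysosomal proteases and Apoe is a lipid carrier. Apoe, at 247 CPM against 24603, had a log2 ratio of -6.91 ± 1.04 (SD, n = 5), and the lysosomal protease Ctsb one of -3.04 ± 0.59 (SD, n = 5).

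By list, 10 of 11 neutrophil markers outside the gate were at least 4-fold higher than in macrophages in every tumour, the exception being Ly6g, and so were 4 of 10 secondary granule genes and 5 of the 8 ranked chemoattractant receptors (Ccr1, Fpr1, Fpr2, Ltb4r1, Ptafr). The adhesion genes Itgam and Itgal were as well. None of the 19 cytokine and chemokine genes was, because at least 1 tumour fell short for each. The log2 ratio of Il1b was 3.48 ± 1.10 (SD, n = 5) and ranged from 1.80 to 4.39, and that of Cxcl2 was 2.91 ± 0.82 (SD, n = 5). Both were thus higher in neutrophils in all 5 tumours, but Ccl3 and Ccl4 were not, with ratios of -0.23 ± 2.51 (SD, n = 5) and 0.60 ± 2.19 (SD, n = 5). Ccl2, which attracts monocytes, gave 81 UMIs in BP replicate 1, of which 1 cell held 77, and 0 in the 4 other tumours. Against the 124 monocyte-like cells, which have fewer counts, 26 genes were 4-fold higher in every tumour.

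**Figure D5:**
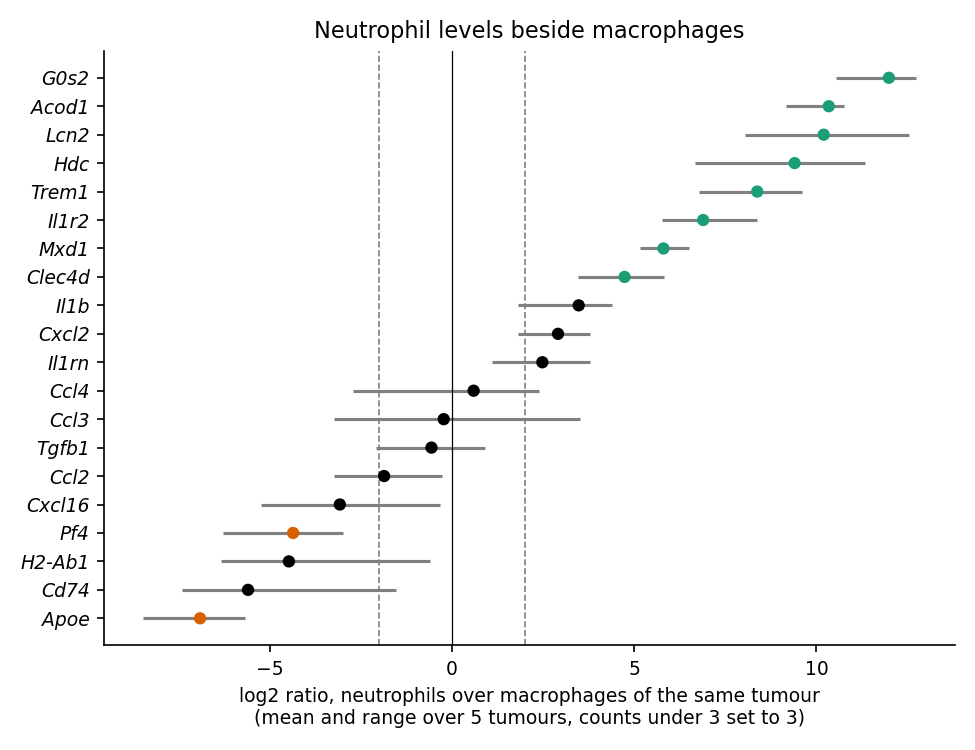
Log2 ratio of the neutrophil level to that of macrophages in the same tumour for named genes, with the mean (point) and range (line) over 5 tumours, green where at least 4-fold higher and orange where at least 4-fold lower in every tumour, and counts under 3 set to 3. G0s2, at a mean of 11.99, lies at the top, Il1b and Cxcl2 stay above 0 throughout, Ccl3 and Ccl4 cross 0, and Apoe, at -6.91, lies at the bottom.

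Among the 190 members that were not granule-rich, cells thinned to 500 UMIs differed by their calprotectin. The S100 sum and Retnlg had a Spearman correlation of 0.557 across these cells, and of 0.432, 0.628, 0.613 and 0.498 within BP replicate 1, BP replicate 2, MP and MP+BP. The sum of Lcn2, Wfdc21 and Pglyrp1 followed the S100 sum less closely (0.33 over all, 0.274 to 0.643 within tumours). For Il1b the correlation with the S100 sum was -0.032 over all and -0.164, -0.258, 0.096 and 0.169 within the same 4 tumours, and for Cxcl2 it was -0.075 over all and -0.087, 0.088, -0.07 and 0.353 within them, so the sign differed between tumours. The points share a library and a fixed depth, the S100 genes chose the cells, and the correlations are given as a description. The 61 cells that kept a Retnlg UMI had a mean of 14.3 S100a8 UMIs against 5.72 in the 129 that did not, Mmp8 in 16.4% against 1.55% and Wfdc21 in 32.8% against 11.6%, while Il1b was found in 72.1% and 79.1% and Cxcl2 in 60.7% and 61.2%. The mean at that depth was 2.21 against 3.05 UMIs for Il1b and 3.02 against 5.68 UMIs for Cxcl2, lower in the Retnlg-positive cells for both. These means pool tumours that differ in both Retnlg and Cxcl2. Within the same 4 tumours the correlation of Retnlg with Cxcl2 was -0.233, 0.156, 0.148 and -0.209, so its sign differed. With Il1b it was -0.131, -0.132, -0.133 and -0.39. Retnlg-positive cells were 23.2% of these members in BP replicate 1, 54.3% in BP replicate 2 and 46.4% in MP, while MP+BP had 19.1% and PD+MP 28.6%.

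Whether neutrophils differed between tumours with a biphasic component (3 tumours) and those without (2 tumours) was tested on the summed counts. With edgeR's quasi-likelihood test and Benjamini-Hochberg adjustment, 0 of 1172 genes were called higher (0.0%) and 0 lower (0.0%), the smallest adjusted p being 0.878, with 34 positive and 8 negative genes whose unadjusted p was under 0.05; DESeq2 also called 0, with 22 and 5 at that unadjusted level. The smallest p-values belonged to Camp, Chil3, Rpl10, Ngp and Ltf. Camp had a log2 fold change of 11.89 ± 3.23 (SE), Ngp of 10.93 ± 3.06 and Ltf of 8.83 ± 2.48, with adjusted p = 0.878 for each. SE here is the absolute fold change divided by the square root of the F statistic of the test. As the other side holds 0 UMIs of these genes, the fitted sizes and their SE depend on the prior count. Nearly all of their UMIs came from the granule-rich cells of the BP tumours, and MP+BP, on the same side, had 0, 0 and 1 UMI. In the lower direction Itgal and Gm16599 led, at log2 fold changes of -1.42 ± 0.47 and -1.74 ± 0.63. Without MP+BP, 12 genes were called higher and 1 lower, with the 2 BP tumours then alone on their side.

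No gene of any list was called in that comparison. The 10 tested neutrophil markers outside the gate had a median log2 fold change of -0.45, the 7 chemoattractant receptors -0.47, the 12 cytokine and chemokine genes -0.10, the 8 secondary granule genes 5.45 and the 2 tested primary granule genes 9.37, beside a median of 0.08 over all genes tested. All 7 of the receptors were negative and 7 of the 8 secondary granule genes positive. The BP sums behind both lists include the granule-rich cells, which held nearly all Camp, Ngp and Ltf UMIs. Directions were not counted over all genes tested, so these counts are a description and no label pattern is read from them.

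Set against the same contrast in macrophages, 5 of 10772 genes (0.0464%) were called higher and 1 (0.00928%) lower in edgeR's test of the interaction, with 296 and 54 at an unadjusted p under 0.05, while DESeq2 called 0, with 141 and 49 at that level. The fitted median over all genes was 0.74 on the log2 scale, and single genes are to be read against that shift. Ly6c2 and Plac8, genes of monocytes and young myeloid cells, had the smallest adjusted p-values. Ly6c2 gave 106, 36, 3, 0 and 0 UMIs in neutrophils and gave 21, 0, 6, 6 and 1162 UMIs in macrophages, so the BP neutrophils and the PD+MP macrophages held nearly all of its UMIs. Without BP replicate 2, 0 genes were called in either direction, and without BP replicate 1 Ly6c2 and Plac8 alone were.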

How the data were processed

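The authors deposited filtered gene-by-cell matrices of raw UMI counts, made with Cell Ranger 7.2.0 on mm10 per the file headers and the labels, with 32286 features. Counts were used as deposited, and counts per 1000000 (CPM), sums per tumour and shares were computed here with Python 3.11.15, scanpy 1.11.5, numpy 2.4.6, scipy 1.17.1 and pandas 2.3.3. Groups came from the sample titles. The members, the 26 gene lists and the tests were chosen with earlier results of these data known. Macrophages had at least 10 UMIs of C1qa, C1qb and C1qc together, and synovial sarcoma cells at least 5 of Adgrb3. Monocyte-like cells had at most 3 UMIs of the C1q genes, at least 5 of Lyz2 and 2 of 5 monocyte genes (Ccr2, Ly6c2, Chil3, Vcan, F13a1). Macrophages and monocyte-like cells also had under 10 UMIs of S100a8 and S100a9 together and under 5 of Adgrb3. Doublets were scored with Scrublet and kept, with their removal as an alternative.

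UMI sums per tumour were tested with the quasi-likelihood test of edgeR 4.0.16 (R 4.3.3; TMM, filterByExpr, Benjamini-Hochberg adjustment over all genes tested, threshold 0.05), with DESeq2 1.42.0 as an alternative; the interaction with macrophages had the tumour as a block. Each SE beside an edgeR value was worked back as the absolute log2 fold change divided by the square root of the F statistic. It is not an SE of the fitted coefficient itself. Gate and mitochondrial genes stayed in library sizes but out of the calls. No label says that the tumours came from separate animals, so p-values measure the spread between these tumours only. Ratios to macrophages were ranked for genes with at least 20 UMIs over the sums of either class. Tested on simulated data, the label comparison (986 genes) recovered 64 of 84 4-fold changes (76.2%) and 73 of 73 16-fold changes (100%), with 2 false calls. These rates count only planted genes that passed the filter on low counts. Planted genes that the filter removed could not be called and are left out, so the rates over all planted changes were lower. The interaction (10907 genes) recovered 3% and 33%, with 0 false calls. The simulated counts had a single fixed dispersion and the same mean in all tumours of a class apart from the planted changes. Changes were planted only in genes past a minimum of neutrophil UMIs. These rates therefore do not tell how often such changes would be called in the real sums, where a few cells can hold most UMIs of a gene. Named genes were the gate genes, the 15 most abundant, up to 6 of each list by mean CPM with the defining markers of other cells, the 10 highest and 10 lowest beside macrophages, those with the smallest p, and Xist and Uty; Il6, Ccl2, Rgs5 and the granule-rich cells were singled out after their values were seen. Alternatives changed the gate, the scaling, the filter on low counts, the fold, the comparator class and the tool, and left out each tumour in turn. Results on a few genes of the lists are not reported here.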

Additional observations from a re-analysis of the deposited data

Results flagged for a closer look

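The difference between tumours with and without a biphasic component was not the same in neutrophils as in macrophages for 6 genes, by edgeR's quasi-likelihood test of the interaction, with the tumour as a block and Benjamini-Hochberg adjustment over 10772 genes. Each value is the log2 label difference in neutrophils minus that in macrophages, beside a median of 0.74 over all genes, and DESeq2 called 0 of them.

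Ly6c2, a surface antigen of monocytes and young myeloid cells, had 7.34 ± 1.21 (SE, adjusted p = 1.45e-05), with 106, 36, 3, 0 and 0 neutrophil UMIs in BP replicate 1, BP replicate 2, MP, MP+BP and PD+MP, and 1162 macrophage UMIs in PD+MP. Plac8 had 6.67 ± 1.22 (adjusted p = 0.000241), with 77, 113, 2, 0 and 0 neutrophil UMIs in the same order and 1679 macrophage UMIs in PD+MP. Without PD+MP neither was called, at 2.86 and 3.59 (adjusted p = 0.966 for both).

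The granule genes Prtn3 and Ltf had 14.17 ± 2.79 (adjusted p = 0.00133) and 14.31 ± 3.22 (adjusted p = 0.0161), and as both had 0 neutrophil UMIs in MP and PD+MP these fitted sizes depend on the prior count. Of 330 Prtn3 UMIs, 1 cell of BP replicate 2 held 181. Spp1 (osteopontin) had 4.69 ± 1.00 (adjusted p = 0.00822), with 1824, 76.0, 122, 1335 and 0 CPM in neutrophils. In macrophages it was at 1856, 334.5, 963.8, 364.2 and 4598.3 CPM in the same order, highest in PD+MP with 26717 UMIs. The 0 in PD+MP neutrophils stands in a sum of 8732 UMIs, and 1 cell of BP replicate 1 held 77 of the 435 neutrophil UMIs there.

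Igfbp3 was the 1 gene in the other direction, at -4.66 ± 1.01 (adjusted p = 0.00932), and a single member held all 88 of its UMIs in MP. That cell had 10880 UMIs, 38 of them from endothelial, mural, fibroblast or synovial sarcoma genes, and was among the 11 members marked as doublets.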

How the results depend on the processing

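The share difference stayed positive under all 18 alternatives, from 0.0741 percentage points without BP replicate 1 to 2.55 as a share of myeloid cells, with exact p from 0.333 to 0.8, in a design that cannot reach 0.05. No paired analysis was possible because the label groups share no replicate numbers given by the labels; the test against macrophages had the tumour as a block by design. In the comparison of labels, calls rose from 0 and 0 to 12 higher and 2 lower with no filter on low counts, and with 1 tumour left out ran from 0 to 12 higher (12 without MP+BP) and from 0 to 1 lower. Where a side was left with 1 tumour, that tumour was assumed to vary like the others. In the comparison with macrophages' label difference (5 higher, 1 lower) there were 4 lower with at least 20 S100 UMIs, 3 and 0 with S100 at 1% of UMIs, 3 higher with 2 second markers, 2 and 0 with 750 genes, 3 and 0 with doublets removed, 8 and 2 with RLE size factors, 2 lower without scaling, and 0 and 0 with at least 10 counts in every neutrophil sum (90 genes) or with DESeq2. Settings chosen after seeing the data gave 2 and 0 without granule-rich members, 1 and 0 without members over 5000 UMIs and 3 and 0 without members holding other markers. Leaving out 1 tumour gave 0 to 11 higher (0 without BP replicate 2, 1 without PD+MP, 2 without BP replicate 1, 10 without MP, 11 without MP+BP) and 0 to 1 lower. Igfbp3 turned to 0.77 without members over 5000 UMIs, which removes the cell holding its UMIs in MP. Beside macrophages (164 higher, 13 lower) there were 8 lower with 20 S100 UMIs, 7 with S100 at 1%, 8 at a mitochondrial limit of 10%, 83 and 3 with 750 genes, 315 and 34 at 2-fold, and 26 and 6 against monocyte-like cells; leaving out 1 tumour gave 158 to 278 higher and 13 to 55 lower, both highest without PD+MP. Where no value above shows it, the cause was not tested. The other 94 values of these results moved by less than 1.5 times or stayed on their side of the threshold. The neutrophil sum of PD+MP was the smallest, at 8732 UMIs.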

Other observations

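Cells with at least 5 UMIs of B-cell precursor genes, a list chosen after the values were seen, were also called in these suspensions. For these 4 genes (Vpreb1, Vpreb3, Igll1, Rag1) there were 4 such cells in BP replicate 1, 2 each in BP replicate 2, MP and MP+BP, and 0 in PD+MP. No neutrophil reached that cut. Granule-rich cells were found among called cells of both BP tumours and MP, and not of MP+BP or PD+MP. In MP all 3 were outside the neutrophil gate, and 2 of them held 5 or more Adgrb3 UMIs, the count that chose synovial sarcoma cells. Whether marrow was taken with the tissue was not tested.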
